A study of Mus musculus with 6 samples.

Results

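The genes for cholesterol synthesis examined here were 7 mouse genes, chosen by name and found by their Ensembl identifiers among the 21006 genes measured. They were Hmgcs1, Idi1, Fdft1, Sqle, Lss and Dhcr7, which encode enzymes of the pathway, and Srebf2, which encodes its main transcription factor. None of the 7 takes up cholesterol, so genes of uptake were described from a second list of 39 further genes of cholesterol synthesis, control, uptake, transport, efflux and turnover. mRNA levels were measured by RNA sequencing in the prefrontal cortex, the front part of the cortex, of 6 wild-type male C57BL/6 mice aged 18 months per the age label, while the sample titles carry the mark 17M. The PND group (postoperative neurocognitive disorder, 3 mice) breathed 1.5% isoflurane for 30 minutes and then had an exploratory laparotomy, an opening and inspection of the abdomen, which took 30 minutes under the same anesthetic. The CON group (3 mice) had no anesthesia and no operation. The mice of PND also had lidocaine cream and povidone iodine on the incision, so that anesthesia, surgery and wound care cannot be told apart. Both groups went through the open field, fear conditioning and the Barnes maze, which ended on day 6 after the operation per the paper. Tissue was taken shortly after the maze, when every mouse was under deep isoflurane anesthesia and was perfused with saline. The comparison asked which cholesterol genes differed in level after anesthesia and surgery.

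Cells make cholesterol from acetyl-CoA. Hmgcs1 joins acetyl-CoA to acetoacetyl-CoA, Idi1 interconverts the isoprene units that are made from the product by way of mevalonate, Fdft1 joins farnesyl units into squalene, Sqle oxidizes squalene, Lss closes the ring to lanosterol, and Dhcr7 performs the last reduction to cholesterol. When sterols are scarce, Scap escorts the SREBP proteins, among them the product of Srebf2, from the endoplasmic reticulum to the Golgi, where they are cut to release transcription factors for most genes of this pathway. The brain makes nearly all of its own cholesterol, since lipoproteins of the blood do not cross the blood-brain barrier. Oligodendrocytes use it for myelin, and astrocytes supply it to neurons.

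The promoter stretches of Hmgcs1, Srebf2 and Lss are shown because they hold letters that factors of this pathway are known to bind. RefSeq (GRCm38.p6) gave promoters for 5 of the 7 genes, and those of Sqle and Fdft1 were not used here. Capitals mark the core of the sterol regulatory element, searched as TCACNCCA, and CCAAT boxes, searched as CCAAT, each on both strands of the 250 bases before a start site. A CCAAT box on the opposite strand reads ATTGG. Bases that GENCODE counts as exon are left out of the stretches shown, but not out of the search. Of Lss only the 83 bases around its CCAAT box are shown. All stretches are written 5′ to 3′ on the plus strand, the strand of these genes.
Hmgcs1, chr13:119690101-119690350: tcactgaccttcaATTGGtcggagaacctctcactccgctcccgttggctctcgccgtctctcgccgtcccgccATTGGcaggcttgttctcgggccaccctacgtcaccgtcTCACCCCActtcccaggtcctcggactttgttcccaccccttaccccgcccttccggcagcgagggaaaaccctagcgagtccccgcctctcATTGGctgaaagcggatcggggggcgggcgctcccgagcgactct
Srebf2, chr15:82147019-82147180: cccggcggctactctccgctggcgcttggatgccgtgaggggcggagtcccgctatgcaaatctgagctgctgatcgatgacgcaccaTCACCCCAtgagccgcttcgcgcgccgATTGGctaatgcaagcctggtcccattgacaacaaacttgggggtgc
Lss, chr10:76531505-76531587: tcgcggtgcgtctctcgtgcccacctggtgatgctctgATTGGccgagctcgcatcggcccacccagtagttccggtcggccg

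The sterol element core lay 137 bases before the RefSeq start site in Hmgcs1 and 162 bases before it in Srebf2. In Srebf2 the 88 bases just before that site are exon in GENCODE, whose gene starts earlier, so the stretch shown ends ahead of the site. It was found in 2 of the 5 genes, in 2 of the 31 further pathway genes with a promoter in the table and in 4.2% of all 27025 genes there. CCAAT was found in 5 of the 5 genes, in 20 of the 31 further pathway genes and in 37.5% of all genes. The GC box GGGCGG, a common promoter motif that was searched on both strands, was found in 5 of 5, in 23 of 31 and in 35.4%. A gene was counted where any of its promoters held the motif, and Dhcr7 had 3 promoters. The CCAAT matches of Idi1 and Dhcr7 lie in windows whose 250 bases are all exon of some GENCODE transcript. These are matches of letters in a window and not measured binding.

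Of the 7 genes, Hmgcs1 had by far the highest level, and it was the single one whose PND samples all lay below the CON samples. FPKM (fragments per kilobase of exon, scaled by depth) allow levels of different genes to be compared per length. Over the 6 samples the mean level was 114 FPKM for Hmgcs1, 25.5 for Fdft1, 8.28 for Idi1, 7.17 for Srebf2, 5.05 for Sqle, 1.54 for Lss and 1.25 for Dhcr7. Hmgcs1 stood 4.47-fold above Fdft1, Fdft1 stood 3.08-fold above Idi1 and Sqle stood 3.29-fold above Lss, each in 6 of 6 samples with no overlap of their ranges. The neighbours Idi1 and Srebf2, Srebf2 and Sqle, and Lss and Dhcr7 kept their order in 4 of 6 samples each, and their ranges overlapped.

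**Figure D1:**
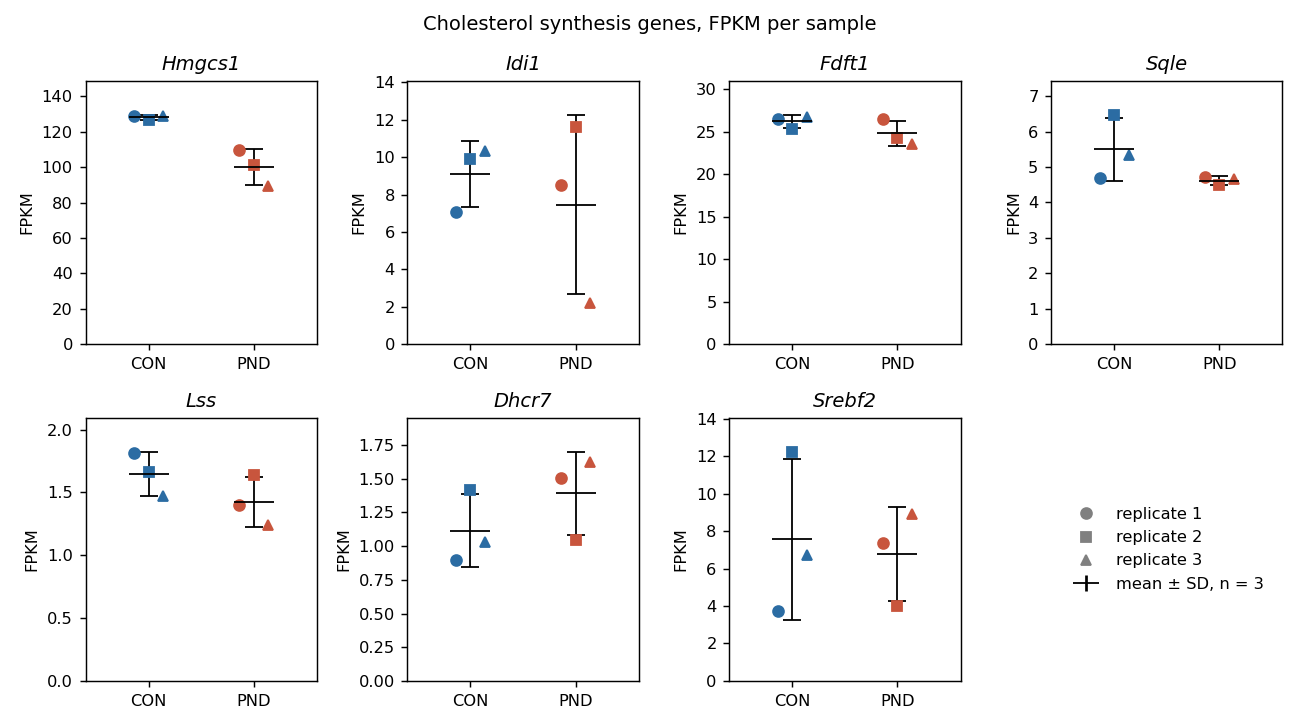
FPKM of each of the 7 genes (vertical axes start at 0) in the 3 CON and 3 PND samples, with points for samples, a bar for the mean and whiskers for the SD. Hmgcs1 is the gene whose groups do not overlap (127 to 129 FPKM in CON, 89.4 to 110 in PND), and the low point of Idi1 is PND replicate 3 at 2.22 FPKM.

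Hmgcs1 (ENSMUSG00000093930, chr13:119690379-119708260 on GRCm38) makes HMG-CoA, the precursor of mevalonate. Its level was 129, 127 and 129 FPKM in CON replicates 1 to 3 and 110, 101 and 89.4 FPKM in PND replicates 1 to 3. The 3 PND samples were all lower than the 3 CON samples, and they spread more widely. The mean was 128 ± 1.18 FPKM in CON and 100.2 ± 10.2 FPKM in PND (SD, n = 3 each), a ratio of 0.782 of PND to CON. The log2 fold change on the log2(FPKM + 0.1) scale was −0.36 (SE 0.10, 95% interval −0.60 to −0.12), and limma gave an adjusted p of 0.9999 for it, at 0.00958 unadjusted. It therefore did not pass a correction for all genes tested, nor the study's cut-off, an absolute log2 fold change above 1 with an unadjusted p below 0.05. Among all 18185 genes tested, 3.13% had an unadjusted p below 0.05, 1.4% had one while lower in PND, 1.33% passed the cut-off, and 3.88% had all PND samples below all CON samples.

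The call of Hmgcs1 at an unadjusted p below 0.05 was found in all 17 alternatives run, with log2 fold changes between −0.43 and −0.28 and unadjusted p between 0.00752 and 0.0494 in limma. The gene had an estimated 3687 to 4757 fragments a sample, for which counting alone gives an error of 1.45% to 1.65%. The spread was 0.922% of the mean in CON, below this counting error, and 10.2% in PND. Counting of strand was not stated, and Hmgcs1 shares 557 of its 4594 exon bases with Gm48342, an antisense gene without a row of its own here.

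Idi1 (ENSMUSG00000058258, chr13:8885501-8892451) was set apart by 1 sample. Its level was 7.06, 9.92 and 10.3 FPKM in CON and 8.50, 11.6 and 2.22 FPKM in PND replicates 1 to 3. PND replicate 2 was the highest of all samples and PND replicate 3 the lowest, so the groups overlapped. The log2 fold change was −0.56 (SE 0.55, 95% interval −1.86 to 0.74, unadjusted p = 0.346 in limma), and without PND replicate 3 it was 0.15. The value of that sample rests on an estimated 73.2 fragments, against 185 to 322 in the others. Stretches of 684 and 681 bases of the 3027-base transcript match Gm13502 and Gm35570 at 100% and 97.7% identity, and neither has a row here, so that how reads shared with these copies were counted is not known.

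The squalene and ring steps showed small differences that did not pass the test. Fdft1 (ENSMUSG00000021273, chr14:63145150-63179578), squalene synthase, was at 26.5, 25.4 and 26.7 FPKM in CON and 26.5, 24.3 and 23.6 FPKM in PND. Its samples lay close together and its groups overlapped, with a log2 fold change of −0.08 (SE 0.10, 95% interval −0.31 to 0.15, unadjusted p = 0.442). Fdft1 shares 774 of its 4227 exon bases with Ctsb, a protease gene on the opposite strand at 46.2 FPKM, and 1249 bases match the copy Gm6781 at 97.4% identity.

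Sqle (ENSMUSG00000022351, chr15:59315077-59331192), squalene epoxidase, was at 4.70, 6.46 and 5.33 FPKM in CON and at 4.70, 4.48 and 4.66 FPKM in PND. The PND samples lay within a narrow range at the lower edge of CON, and CON replicate 1 fell inside that range. The log2 fold change was −0.24 (SE 0.16, 95% interval −0.61 to 0.14, unadjusted p = 0.183). Lss (ENSMUSG00000033105, chr10:76531588-76557138), lanosterol synthase, was at 1.81, 1.66 and 1.47 FPKM in CON and at 1.40, 1.64 and 1.24 FPKM in PND. Its groups overlapped through PND replicate 2, with a log2 fold change of −0.20 (SE 0.21, 95% interval −0.69 to 0.30, unadjusted p = 0.376). Lss rests on 114 to 147 estimated fragments a sample.

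Dhcr7 (ENSMUSG00000058454, chr7:143823145-143848410), the last enzyme of one branch of the pathway, was the member with a positive log2 fold change. It was at 0.898, 1.42 and 1.03 FPKM in CON and at 1.51, 1.04 and 1.62 FPKM in PND. The groups overlapped, since CON replicate 2 lay above PND replicate 2. The log2 fold change was 0.30 (SE 0.27, 95% interval −0.35 to 0.94, unadjusted p = 0.316). At 39.1 to 88.9 estimated fragments a sample, counting alone gives an error of up to 16.0%, and the spread within the groups was 24.1% in CON and 22.1% in PND.

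Srebf2 (ENSMUSG00000022463, chr15:82147181-82205379), the transcription factor gene, varied most within CON. Its level was 3.72, 12.2 and 6.74 FPKM in CON and 7.39, 4.01 and 8.92 FPKM in PND replicates 1 to 3. Both the highest and the lowest sample were CON samples, and all PND samples lay between them. The log2 fold change was −0.07 (SE 0.46, 95% interval −1.14 to 0.99, unadjusted p = 0.879). It was 0.35 without CON replicate 2 and 0.26 without PND replicate 2. An interval of this width holds differences past the cut-off in one direction and close to it in the other, so these samples do not show that Srebf2 was at the same level in both groups.

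The wide spread of Srebf2 went with the base composition of transcripts. Of the 7 genes its longest transcript had the highest GC content, 57.9%, while those of Idi1 and Hmgcs1 had 41.9% and 43.1%. In the samples at large, the tenth of genes richest in GC had a median log2 deviation from each gene's mean of −0.56 in CON replicate 1, 0.49 in CON replicate 2 and −0.03 in CON replicate 3, and of 0.11, −0.30 and 0.37 in PND replicates 1 to 3. The deviations of Srebf2 were −0.81, 0.88 and 0.03 in CON and 0.16, −0.70 and 0.43 in PND, in the same order of samples. With a correction for GC content fitted in each sample, the SD of Srebf2 over the 6 samples was 0.31 in place of 0.65 on the log2 scale. The spread was less after the correction in 5 of the 7 genes and more in Fdft1 (SD 0.17 in place of 0.075) and Lss (0.21 in place of 0.19). The log2 fold change with the correction was −0.16 (SE 0.22), against −0.07 (SE 0.46) without it, and it did not pass the test in either fit.

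Among the 45 tested genes of both lists, the 13 with a GC content of at least 55% had a median SD over the 6 samples of 0.50 as deposited and 0.28 after the correction, with less spread in 12 of the 13. The other 32 had a median SD of 0.22 before and 0.19 after, with less spread in 24. CON replicate 2 was the highest sample in 9 of the 13 and CON replicate 1 the lowest in 9, against 12 and 9 of the other 32. Both extremes are CON samples, and the part of base composition in any difference between PND and CON was tested here by the corrected fit alone.

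**Figure D2:**
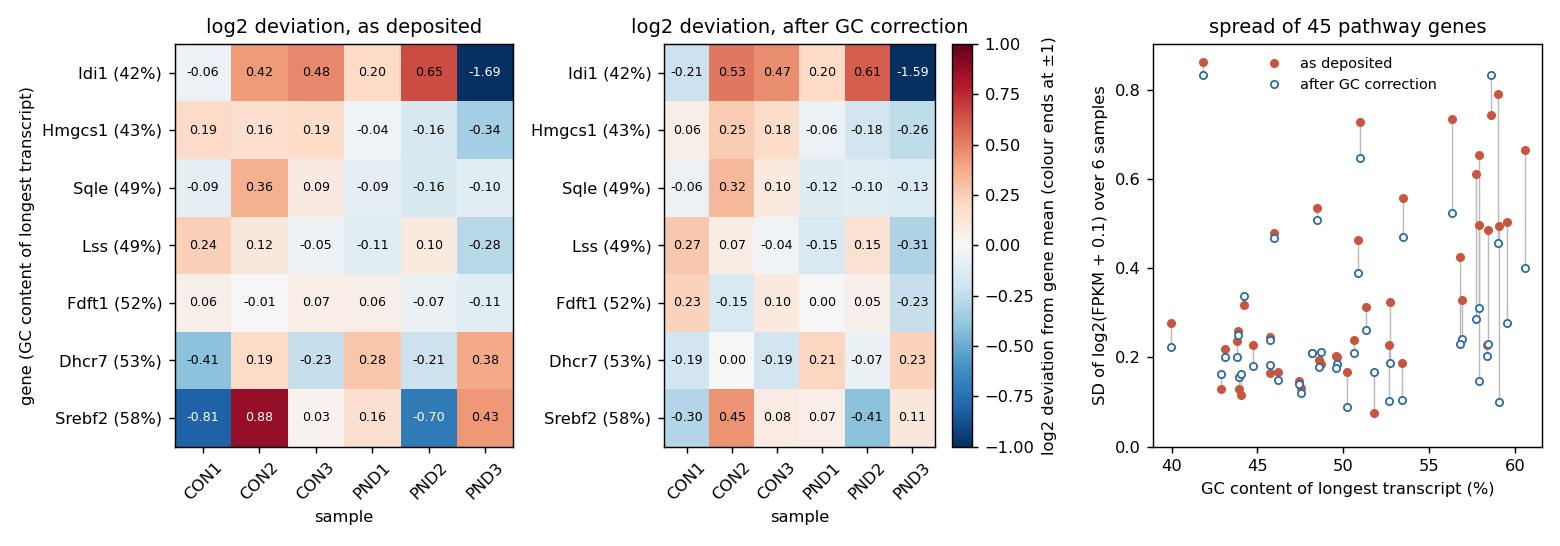
Log2 deviation of each sample from the gene's mean for the 7 genes, ordered by GC content, as deposited (left) and after correction for GC content (middle), and the SD over 6 samples of the 45 tested pathway genes against GC content (right). Srebf2, at 57.9% GC, goes from deviations of −0.81 and 0.88 in CON replicates 1 and 2 to −0.30 and 0.45, while Idi1 in PND replicate 3 stays low (−1.69 and −1.59).

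Taking the 7 genes by count, 6 had a log2 fold change below 0 and 1 above, with a median of −0.20. For comparison, 47.6% of all genes tested were below 0 and their median was 0.01. The filter on low values kept all 7. In limma, Hmgcs1 alone had an unadjusted p below 0.05, and none passed the cut-off or had an adjusted p below 0.05. The median log2 deviation of the 7 genes was −0.06, 0.19 and 0.07 in CON replicates 1 to 3 and 0.06, −0.16 and −0.11 in PND replicates 1 to 3. CON replicate 1 lay below PND replicate 1, so the groups overlapped on this summary. Leaving out CON replicate 2, PND replicate 2 or PND replicate 3 left 5 genes below 0 in each case.

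The genes whose pattern over the 6 samples was nearest to this median, among 12287 genes outside both lists with at least 1 FPKM, were Stau1, Tmem59 and Sh3bp5l. Their root mean square difference from it was 0.027, 0.033 and 0.037 on the log2 scale. Stau1, which encodes an RNA-binding protein, was at 6.92, 7.83 and 7.39 FPKM in CON and at 7.46, 6.33 and 6.64 FPKM in PND.

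The other enzymes of synthesis showed no call. All 13 were tested, 10 were below 0 and 3 above, the median log2 fold change was −0.18, and none had an unadjusted p below 0.05. Cyp51, lanosterol demethylase, came nearest. It was at 20.2, 16.2 and 18.7 FPKM in CON and at 15.8, 15.3 and 15.4 FPKM in PND, so that all PND samples lay below all CON samples, with CON replicate 2 just above them. Its log2 fold change was −0.24 (SE 0.12, 95% interval −0.52 to 0.04, unadjusted p = 0.0833 in limma). Over the 17 alternatives the unadjusted p in limma ranged from 0.0240 (log2 fold change −0.33, without CON replicate 2) to 0.210 (−0.17, without CON replicate 1). It was below 0.05 in 2 of them, the other one being the GC correction at 0.0494, which gave 0.0919 together with the replicate block.

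Of the remaining enzymes, Fdps, which makes farnesyl diphosphate, had a log2 fold change of 0.01 and Nsdhl, a sterol dehydrogenase, −0.18. The lowest value of the list was −0.33 for Mvd, mevalonate diphosphate decarboxylase, and the highest 0.19 for Lbr, a sterol reductase of the inner nuclear membrane. Both had intervals that include 0.

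Over all 19 enzymes, members included, 15 (78.9%) were below 0, against the 47.6% of all genes, with a median of −0.18. This count rests on the samples kept. It was 11 of 19 without CON replicate 2, 13 without PND replicate 2, 13 without CON replicate 3 and 17 without CON replicate 1, and 16 with the GC correction. The median deviation of the 19 enzymes was −0.08, 0.19 and 0.15 in CON and −0.01, −0.16 and −0.10 in PND, so CON replicate 1 lay among the PND samples. The enzymes are under shared control, and they are not independent observations.

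**Figure D3:**
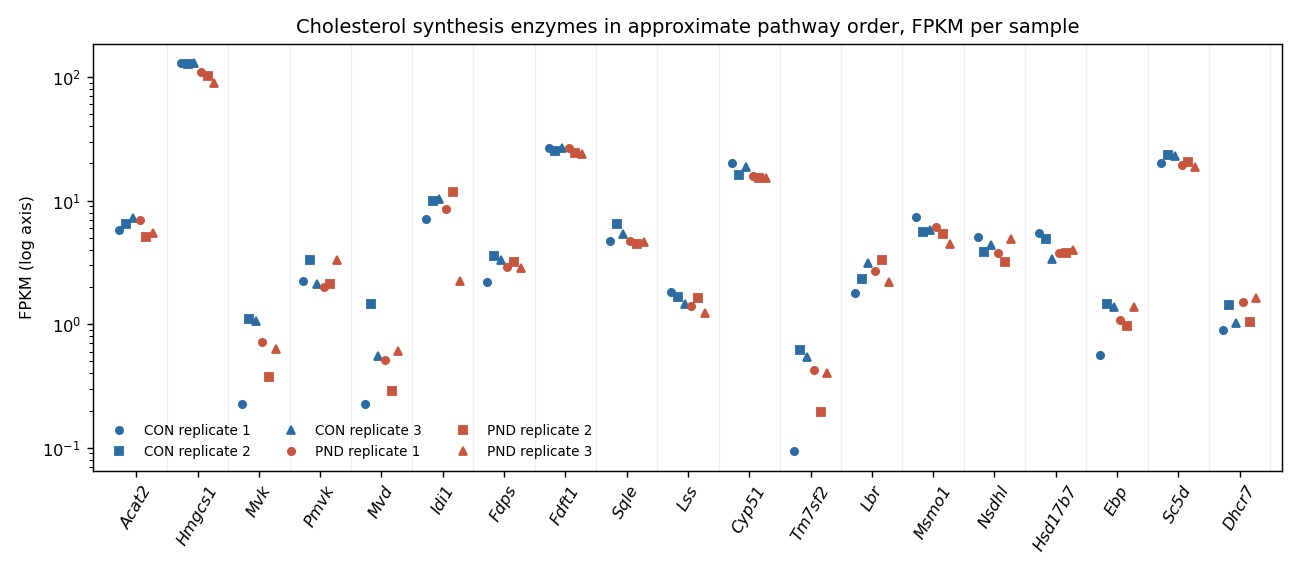
FPKM (log axis) of 19 cholesterol synthesis enzymes in approximate order of the pathway, 1 point for each of the 6 samples. Hmgcs1 has the highest level (89.4 to 129 FPKM), and for most other enzymes the CON and PND points are mixed.

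The genes of SREBP control, which include Srebf1 as an SREBP gene itself, showed no call. Of the 7, 3 were below 0 and 4 above, with a median log2 fold change of 0.04. Insig1, which retains Scap in the endoplasmic reticulum when sterols are plentiful, was at 18.8, 25.1 and 27.1 FPKM in CON and at 20.8, 21.4 and 19.3 FPKM in PND. The PND samples lay between CON replicate 1 and the other CON samples. Its log2 fold change was −0.19 (SE 0.15, 95% interval −0.55 to 0.17, unadjusted p = 0.256). Leaving out each sample in turn moved the log2 fold change between −0.35, without CON replicate 1, and −0.08, without CON replicate 3. The unadjusted p in limma was 0.0192 in the former fit and 0.629 in the latter. Scap had a log2 fold change of 0.06 (SE 0.37) and Srebf1, the paralog that favours fatty acid synthesis, −0.07 (SE 0.28).

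Of the 9 genes of uptake and transport in the list, 2 were below 0 and 7 above, with a median log2 fold change of 0.12. None had an unadjusted p below 0.05. Vldlr, a receptor for lipoproteins and reelin, was at 14.5, 9.21 and 13.7 FPKM in CON and at 13.99, 12.5 and 13.4 FPKM in PND, with a log2 fold change of 0.12 (SE 0.18). Its lowest sample was CON replicate 2, and its PND samples lay inside the range of CON.

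For efflux and turnover, 9 of 10 genes passed the filter on low values. Ch25h, a cholesterol hydroxylase of immune cells, was listed at 0 in all CON samples and at most at 0.19 FPKM in PND, and was not tested. Of the 9, 5 were below 0 and 4 above, with a median of −0.02 and no unadjusted p below 0.05. Abca1, the exporter that loads cholesterol onto lipoproteins, was at 7.24, 5.88 and 6.78 FPKM in CON and at 7.29, 6.00 and 6.78 FPKM in PND, with a log2 fold change of 0.01 (SE 0.15, 95% interval −0.33 to 0.36). Cyp46a1, the neuronal hydroxylase by which the brain clears cholesterol, was at 9.005, 19.2 and 10.7 FPKM in CON and at 11.2, 11.2 and 20.46 FPKM in PND. It had 1 high sample in each group and a log2 fold change of 0.16 (SE 0.34). Its longest transcript had a GC content of 58.5%, and with the GC correction the log2 fold change was 0.07 (SE 0.17).

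Over the 39 further genes, 38 were tested, 20 were below 0, none had an unadjusted p below 0.05 in limma and 1 (Cyp51) had groups that did not overlap. Among all genes tested, 7.66% had groups that did not overlap in either direction. The median of the 38 log2 fold changes was −0.03.

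**Figure D4:**
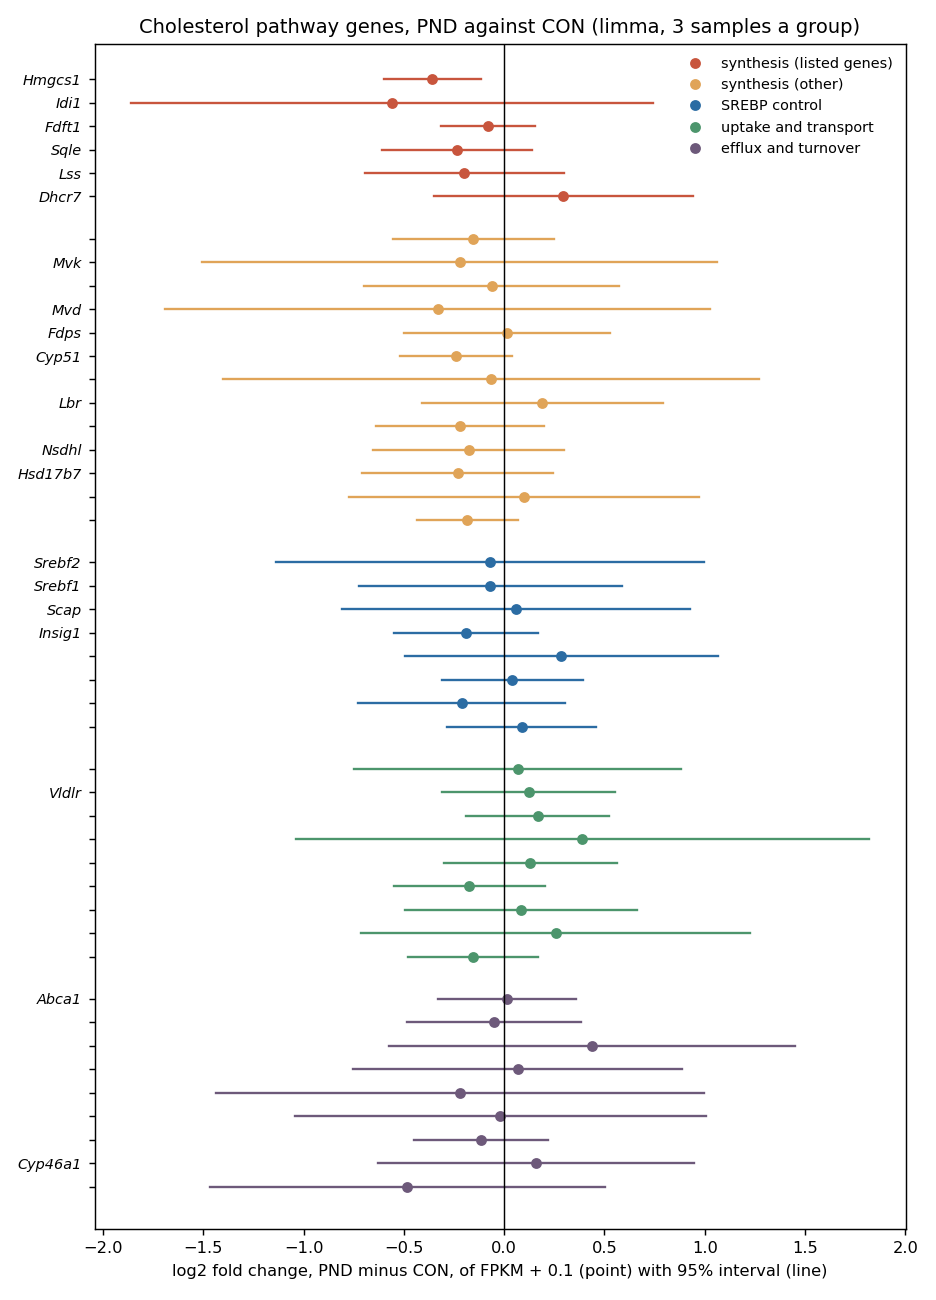
Log2 fold change of PND minus CON on the log2(FPKM + 0.1) scale (points) with 95% intervals from limma (lines) for the 45 tested genes, in groups by role, with the names of the genes that the text names. The interval of Hmgcs1 (−0.60 to −0.12) lies below 0, and the intervals of the other 44 genes include 0.

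Cell type markers were read beside these genes, since in bulk tissue fewer cells of a type and less RNA per cell cannot be told apart. The 6 neuron markers summed to 782 to 867 FPKM in CON and 748 to 845 in PND and were thus abundant in both groups. The 8 oligodendrocyte markers summed to 274 to 299 FPKM in CON and 240 to 303 in PND, and the 6 astrocyte markers to 250.3 to 536 in CON and 289 to 399 in PND. These ranges overlapped. Of 39 marker genes tested, 6 (15.4%) had an unadjusted p below 0.05, against 3.13% of all genes tested, and none an adjusted p below 0.05 in limma. The 6 microglial markers summed to 20.2 to 30.3 FPKM in CON and 18.1 to 25.9 in PND, and the 5 endothelial markers to 17.5 to 20.9 in CON and 20.1 to 24.3 in PND, with overlap in both. Within each of these lists the members went both ways. Log2 fold changes were below 0 for 3 of 6 neuron markers, 6 of 8 oligodendrocyte markers, 3 of 6 astrocyte markers, 2 of 6 microglial markers and 2 of 5 endothelial markers, with medians of −0.01, −0.16, 0.00, 0.10 and 0.29. The 6 markers with an unadjusted p below 0.05 were Opalin of oligodendrocytes at a log2 fold change of −0.78, Aqp4 and Gfap of astrocytes at −0.36 and 0.66, P2ry12 of microglia at −0.76, Ly6c1 of endothelial cells at 0.79 and Clic6 of the choroid plexus at 0.80. Of the other microglial markers, C1qa was at 0.59, Tmem119 at 0.52, Cx3cr1 at 0.15, Aif1 at 0.04 and Csf1r at −0.13. The 5 choroid plexus markers summed to 1.155 to 2.08 FPKM in CON and 2.26 to 2.86 in PND, while Ttr was at most at 0.21 FPKM in any sample and Folr1 at most at 0.05. Red blood cell markers summed to 2.76 FPKM in PND replicate 1 and to at most 0.19 elsewhere. The part of these markers in the difference of Hmgcs1 was not tested.

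Across the samples, the FPKM summed to 215640 to 240447. Mitochondrially encoded genes held 34.0%, 30.9% and 34.3% of the sum in CON replicates 1 to 3. They held 30.4%, 38.8% and 37.4% in PND replicates 1 to 3, and their part in the difference of Hmgcs1 was not tested beyond rescaling without them. The effective depth estimated from steps in low values was 7204050 to 9412246 fragments. Fragment numbers are estimates, since 39.9% to 44.2% of the low values came out within 0.05 of a whole number, and errors from them cover counting alone.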

How the data were processed

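mRNA was sequenced in 3 PND and 3 CON mice of 13 per group, with 1 sample per mouse. The authors depleted rRNA, sequenced on an Illumina HiSeq instrument, filtered reads with Seqtk, mapped them with HISAT2, counted fragments per gene with StringTie, applied TMM scaling and deposited FPKM. The submitters' processing notes also name Bowtie 0.12.2 and the builds mm8 and mm9, without a role. Annotation and strand use were not given in the sources used here.

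From these FPKM, differences of PND from CON were fitted with limma 3.58.1 (R 4.3.3, lmFit, eBayes with trend) on log2(FPKM + 0.1), for 18185 genes whose mean reached 0.1 FPKM, without covariate. p-values were two-sided, with Benjamini-Hochberg adjustment over all genes tested. This scale understates changes of low genes. Groups came from the treatment labels. Alternatives were other pseudocounts, filters, scalings and a fit without trend, a correction for GC content (a loess curve per sample), a replicate block, and leaving out each sample.

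Coordinates, exon lengths and GC content of the longest transcript came from GENCODE M21 (GRCm38). Near-identical transcripts were found with BLAST 2.17.0 over at least 100 bases at 95% identity. The fit was tested on simulated fragments, where 152 of 170 genes changed 4-fold passed the cut-off (116 of 116 with at least 1 FPKM) among 18028 genes. The simulation set a dispersion (variance between samples beyond counting) of 0.02. The real spread reached 57% of the mean for Srebf2 in CON and 64.3% for Idi1 in PND. Changes of 4-fold are also far larger than the differences of the 7 genes, so the simulation does not show that such differences would be found. The members and lists were chosen with earlier results of these data known. Named were the 7 genes, 9 further pathway genes whatever their values, any other pathway gene with an unadjusted p below 0.05, the 3 genes nearest in pattern, and genes at the ends of a range. Other genes named were chosen after their values were seen. Some pathway genes are not reported here, and the lists and counts leave them out.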

Additional observations from a re-analysis of the deposited data

How the results depend on the processing

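Hmgcs1 kept its direction and an unadjusted p below 0.05 in all 17 alternatives, and none of the 7 genes passed the study's cut-off in any of them. Over all genes, 241 passed the cut-off, against 25 with a pseudocount of 1 and 59 with a mean of at least 1 FPKM, which tests fewer genes, and 235 to 388 when 1 sample was left out, the highest without CON replicate 2. Of the further pathway genes, 0 had an unadjusted p below 0.05 in limma, also with the replicate block, against 1 with the GC correction (Cyp51) and 0 to 2 when 1 sample was left out. These were Mvk and Insig1 without CON replicate 1, Cyp51 without CON replicate 2 and Hsd17b7 without CON replicate 3. The cause was not tested. The replicate block moved the number of genes with an unadjusted p below 0.05 from 569 to 361. That number was 803 with the GC correction. It was 406 to 960 when 1 sample was left out, the highest without CON replicate 2. Same-numbered samples did not deviate together (correlations −0.05, −0.45 and 0.03). These values show no pairing by number, but with so few samples they cannot exclude shared handling.

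Of 271 values of single genes under alternatives, 18 turned direction. With all samples kept these were Scap (−0.029 with the GC correction, with and without the block) and Fdps (−0.0066 with quantile scaling and −0.012 with the GC correction, with and without the block). With 1 sample left out, the log2 fold change ranged from −1.02 to 0.15 for Idi1, −0.49 to 0.35 for Srebf2, −0.26 to 0.39 for Scap, −0.24 to 0.11 for Srebf1, −0.20 to 0.14 for Fdps, −0.13 to 0.48 for Cyp46a1, −0.070 to 0.088 for Abca1 and −0.080 to 0.24 for Vldlr. In these fits the direction held but the size moved for Sqle (−0.34 to −0.11), Lss (−0.30 to −0.11), Fdft1 (−0.13 to −0.046), Nsdhl (−0.33 to −0.041) and Dhcr7 (0.16 to 0.48). Among the 7 genes Dhcr7 had the fewest estimated fragments, 39.1 to 88.9 a sample. Of the further genes named, Mvd had 3.16 to 22.2, Mvk 4.54 to 23.9 and Srebf1 24.5 to 46.0.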
